A study of Arabidopsis thaliana with 12 samples.

Results

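The genes described here are 5 members of the IQD family of calmodulin-binding proteins in Arabidopsis thaliana, namely IQD18 (AT1G01110), IQD27 (AT1G51960), IQD28 (AT1G14380), IQD30 (AT1G18840) and iqd32 (AT1G19870), out of 16548 genes measured on 12 arrays. They were matched by symbol in the array's probe annotation. They were chosen by someone who already knew the log2 differences of these same arrays, so their values below are a description and carry no test of their own. The family list holds 33 loci, of which 17 had a probe set assigned to 1 gene. The 12 further measured loci were not named by the rule and were tested with all other genes, and the remaining 16 loci were not analysed here.

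Each array measured whole-seedling RNA of wild-type Col-0 or of gun1-101, a mutant line of the GUN1 gene, grown on medium without or with 0.5 mM lincomycin, with 3 biological replicates in each of the 4 groups. All seedlings were 7 days old, after 2 days of stratification, 8 h of light, 5 days of darkness and 2 days of light. The labels give 1 mutant allele and no complemented line, and GUN1 itself was not analysed here. Lincomycin blocks protein synthesis in plastids, and GUN1, a chloroplast pentatricopeptide repeat protein, is needed for the signal by which damaged plastids lower the expression of nuclear photosynthesis genes. The design asks how nuclear transcripts respond to this block with and without GUN1.

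IQD proteins share a plant-specific stretch of IQ motifs, the short helices that hold calmodulin, the calcium-binding sensor protein. Many of them sit on microtubules, at the plasma membrane or in the nucleus, where they are thought to act as scaffolds that tie calcium signals to the cytoskeleton and to cell shape. IQD1, the founding member, binds kinesin light chain-related proteins. IQD18 belongs to a group of auxin-responsive IQD proteins that connect calmodulin with a microtubule-associated protein.

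All levels are log2 RMA units, in which 1 unit is a factor of 2 in probe intensity, and levels were compared between groups within a gene and never between genes. Each array's median over the genes tested was between 6.59 and 6.70, and the mean correlation of an array with the others of its group lay between 0.979 and 0.991. The light-harvesting gene LHCB1.5 showed that lincomycin had acted, with levels of 11.56, 11.77 and 11.76 on the Col-0 control arrays and 7.02, 6.97 and 8.02 on the Col-0 lincomycin arrays (log2 difference -4.36, SE 0.25, limma adjusted p = 5.96e-07). Seedling tissue was present on every array, since the leaf gene RCA (rubisco activase) lay at 10.68 to 11.77 and the root-rich gene PYK10 at 12.15 to 12.43. In such bulk samples, fewer cells of a type and less RNA per cell cannot be told apart.

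In gun1-101, the 5 IQD genes had lower levels on all 3 lincomycin arrays than on any of the 3 control arrays, while in Col-0 the lincomycin and control arrays of all 5 overlapped. Of the 5, 4 were below the threshold of an adjusted p of 0.05 in gun1-101 (called lower), against 9.51% of all genes called lower and 10.9% called higher. The groups did not overlap for 5 of 5, against 24.2% of all genes with every gun1-101 lincomycin array below every gun1-101 control array. The median log2 difference of the 5 was -0.48, against -0.06 over all genes. Since the choice of genes used these values, nothing is read from these shares.

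IQD30 had the largest difference of the 5. Its level was 8.37, 8.25 and 8.00 on the gun1-101 control arrays and 7.63, 7.31 and 7.40 on the gun1-101 lincomycin arrays. In Col-0 it was 7.99, 8.38 and 8.14 without and 8.51, 8.24 and 7.94 with lincomycin. The gun1-101 lincomycin arrays were thus the lowest of all 12, with a gap to the next array, and the other 9 arrays shared 1 range. The log2 difference in gun1-101 was -0.76 (SE 0.17, 95% interval -1.14 to -0.39), a 1.69-fold lower level. IQD30 was called lower in gun1-101 under each of 22 alternative analyses.

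IQD28 varied least between replicates. It stood at 7.54, 7.40 and 7.60 on the gun1-101 control arrays and at 7.13, 7.11 and 7.06 after lincomycin. The Col-0 arrays read 7.45, 7.36 and 7.49 without lincomycin and 7.44, 7.60 and 7.57 with it. Again the 3 gun1-101 lincomycin arrays lay below the other 9. The difference in gun1-101 was -0.41 on the log2 scale (SE 0.11, 95% interval -0.65 to -0.18), or 1.33-fold.

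The gene iqd32 read 9.39, 9.47 and 9.43 in gun1-101 controls and 8.96, 9.01 and 8.94 in gun1-101 on lincomycin, with an SD of 0.04 in each of these groups. Col-0 was more spread, at 9.45, 9.23 and 9.12 without and 9.62, 9.62 and 9.17 with lincomycin. The gun1-101 lincomycin arrays were the lowest of the 12, and Col-0 control replicate 3 came next. The log2 difference in gun1-101 was -0.46 (SE 0.14, 95% interval -0.77 to -0.15), a factor of 1.38.

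IQD18 was measured at 6.52, 6.28 and 6.69 on gun1-101 control arrays and at 5.93, 6.21 and 5.93 on gun1-101 lincomycin arrays. Its Col-0 values were 6.83, 6.55 and 6.57 for controls and 6.45, 6.55 and 6.59 for lincomycin. The gun1-101 groups came close to touching, since the second control array and the second lincomycin array differed by less than the SD of either group (0.20 and 0.16). The log2 difference was -0.48 (SE 0.14, 95% interval -0.78 to -0.17), equal to 1.39-fold.

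IQD27 was the member with the widest spread and was not called in gun1-101. Its values were 6.13, 6.33 and 6.46 in gun1-101 controls and 5.59, 6.12 and 5.70 in gun1-101 on lincomycin. In Col-0 they were 6.34, 5.85 and 5.92 without and 6.34, 6.00 and 5.57 with lincomycin. The highest gun1-101 lincomycin array lay just under the lowest gun1-101 control array, and the Col-0 arrays covered most of both ranges. The estimate in gun1-101 was -0.50 on the log2 scale (SE 0.21, 95% interval -0.96 to -0.04).

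The count of 4 called members stayed at 4 when any of the 6 Col-0 arrays was left out and was 3 without gun1-101 control replicate 2. It was 1, IQD30 alone, without gun1-101 control replicate 1, gun1-101 control replicate 3, gun1-101 lincomycin replicate 1 or gun1-101 lincomycin replicate 3, and 2 without gun1-101 lincomycin replicate 2. The differences of the genes that lost their call there stayed between -0.46 and -0.38 for IQD18, between -0.43 and -0.37 for IQD28 and between -0.48 and -0.44 for iqd32. One array measure moved with this comparison, the median over the first 7083 probe sets in the deposited order. None of these carries a listed gene, and they are a part of the 20927 probe sets without one. Their median was 5.10, 5.02 and 4.88 on the gun1-101 control arrays and 4.71, 4.54 and 4.81 on the gun1-101 lincomycin arrays. With that median as a further term in the fit, a choice made after seeing the data, 2 of the 5 were called lower in gun1-101, IQD28 and IQD30, while IQD18 had a difference of -0.44 and iqd32 of -0.34. The same median ran from 4.50 to 5.37 on the Col-0 control arrays and from 4.72 to 5.14 on the Col-0 lincomycin arrays.

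**Figure D1:**
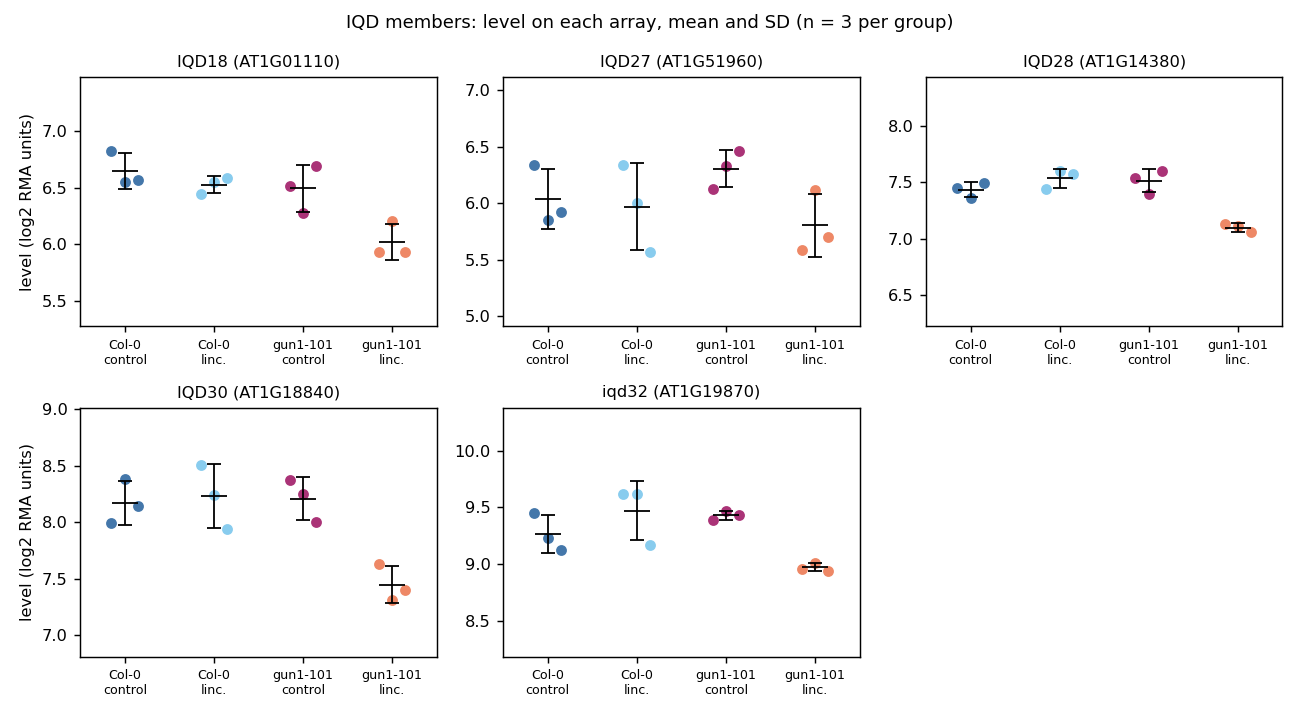
Level of IQD18, IQD27, IQD28, IQD30 and iqd32 in log2 RMA units (vertical axis, each panel spanning the same number of units) on each of the 12 arrays, by group; each point is 1 array, and the black bars give the mean and SD of 3 arrays. In every panel the 3 gun1-101 lincomycin points lie below the 3 gun1-101 control points, while the Col-0 lincomycin and control points overlap.

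In Col-0, lincomycin left the 5 genes without a called difference. Over all genes, 7.19% were called lower and 7.15% higher in this comparison, and limma called 0 of 5 members, with 0 at an unadjusted p under 0.05. The log2 differences were -0.12 for IQD18 (95% interval -0.42 to 0.19), -0.07 for IQD27 (-0.53 to 0.40), 0.11 for IQD28 (-0.13 to 0.34), 0.06 for IQD30 (-0.32 to 0.43) and 0.20 for iqd32 (-0.11 to 0.51). The groups were free of overlap in 0 of 5, against 12.6% of all genes with every Col-0 lincomycin array below every control. Each interval spans zero, which does not show that the levels stayed equal. With 2 arrays left out together, the first Col-0 control and replicate 3 of Col-0 on lincomycin, iqd32 was called higher.

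Without lincomycin the genotypes could not be separated on these genes. Between the control groups 0.0181% of all genes were called in either direction, which is 3 genes, and none of the 5 members was among them, with 0 of 5 at an unadjusted p under 0.05, against 12.7% of all genes. The count of 3 moved with single control arrays and with the fit. It was 0 without Col-0 control replicate 2, Col-0 control replicate 3 or any gun1-101 control array, and 1997 with array weights. Col-0 control replicate 1 had a median over the first 7083 probe sets, which carry no listed gene, of 5.37, against 4.50 on both other Col-0 control arrays. Without that array 1054 genes were called between the control groups, and still 0 of the 5 members. Whether its median bears on the count was not tested. The log2 differences, gun1-101 minus Col-0, were -0.15 for IQD18, 0.27 for IQD27, 0.08 for IQD28, 0.03 for IQD30 and 0.16 for iqd32.

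On lincomycin the genotypes stood apart. Of the 5 genes, 4 were called lower in gun1-101 than in Col-0 and did not overlap, where 4.45% of all genes were called lower, 5.12% were called higher and 17.6% had every gun1-101 array below every Col-0 array. This comparison uses the same 3 gun1-101 lincomycin arrays as the one within gun1-101. The log2 differences were -0.78 for IQD30 (SE 0.17, 1.72-fold), -0.51 for IQD18 (SE 0.14, 1.42-fold), -0.50 for iqd32 (SE 0.14, 1.41-fold) and -0.44 for IQD28 (SE 0.11, 1.35-fold). IQD18 lost its call with the replicate block (limma adjusted p = 0.0628), with quantile normalisation and with the trend fit. The gene iqd32 (limma adjusted p = 0.0457) lost its call when any of 10 of the 12 arrays was left out, and IQD18 for 7 of the 12. Both also lost it with arrays shifted to 1 median, with every probe set tested, with the compared groups alone and with the array term. IQD27 had a difference of -0.17 (95% interval -0.63 to 0.30), and its arrays overlapped. The count of 4 depended on single arrays: it was 0 without Col-0 lincomycin replicate 2 or gun1-101 lincomycin replicate 3, 1 without replicate 1 or 2 of gun1-101 on lincomycin or Col-0 lincomycin replicate 1, and 2 without gun1-101 control replicate 1 or Col-0 control replicate 3. Only without Col-0 control replicate 1 did all 4 calls stay.

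The response to lincomycin was more negative in gun1-101 than in Col-0 for each of the 5, against 55.6% of all genes. None of the 5 passed the threshold on the difference of the responses itself. Over all genes 2.96% were called lower and 4.01% higher for this difference, and limma called 0 of 5 members, with 3 of 5 at an unadjusted p under 0.05, against 28.3% of all genes. Single arrays moved the 1153 genes called here: the number was 3876 when Col-0 control replicate 1 was left out, 2986 for replicate 3 of Col-0 on lincomycin, 379 for replicate 2 of that group and no more than 704 for any of the other 9. Of the 5 members, 2 were called lower in each of the first 2 cases, IQD28 and iqd32 when that control array was left out, and IQD30 and iqd32 for replicate 3 of Col-0 on lincomycin. The difference of responses was -0.82 for IQD30 (95% interval -1.35 to -0.29), -0.66 for iqd32 (-1.10 to -0.23), -0.52 for IQD28 (-0.85 to -0.19), -0.43 for IQD27 (-1.09 to 0.22) and -0.36 for IQD18 (-0.79 to 0.08).

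Over the 12 arrays the members followed each other to different degrees. Pearson's r lay between 0.37 and 0.85 over their 10 pairs, with a median of 0.67, which describes arrays that share the 4 groups and their normalisation. The 3 genes most like each member over the 12 arrays are given as a description of the same kind. For IQD30 they were AT1G76880 (r = 0.94), AT2G28960 (r = 0.94) and AT1G03740 (r = 0.93). For IQD28 they were AT1G47740 (r = 0.97), AT5G10970 (r = 0.96) and AT1G76270 (r = 0.95). The neighbours of iqd32 were AT3G07940 (r = 0.98), AT3G14172 (r = 0.97) and PRP39-2 (r = 0.97). IQD18 lay closest to AT5G13400 (r = 0.93), AT5G11990 (r = 0.92) and AT3G51180 (r = 0.91). IQD27 lay closest to AT3G24513 (r = 0.93), AT1G59920 (r = 0.93) and AT1G77620 (r = 0.92). No IQD gene was among the 3 nearest of another member.

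Among the 12 further IQD genes, lincomycin lowered 6 in gun1-101, against 9.51% of all genes, and 3 in Col-0, against 7.19%, and raised none in either genotype, by limma with Benjamini-Hochberg adjustment over all genes. In gun1-101 11 of 12 had a difference below zero, with a median of -0.43, against 55.9% of all genes below zero and a median of -0.06, and 8 of 12 had lincomycin arrays all below the controls, against 24.2% of all genes. In Col-0 7 of 12 lay below zero, against 47.9% of all genes, with a median of -0.04 against 0.02, and 3 of 12 did not overlap, against 12.6%.

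The gene iqd21 (AT3G49260) fell most. It stood at 7.89, 7.93 and 7.86 in gun1-101 controls and at 6.44, 6.41 and 6.79 in gun1-101 on lincomycin. In Col-0 it stood at 8.15, 7.71 and 7.74 without and at 7.15, 6.93 and 6.91 with lincomycin. The fall was 2.55-fold in gun1-101 (log2 difference -1.35, SE 0.15, limma adjusted p = 0.000259) and 1.83-fold in Col-0 (-0.87, SE 0.15, limma adjusted p = 0.00265). The controls of the genotypes shared 1 range and each lincomycin group lay below it, so iqd21 fell with lincomycin in both genotypes. Its difference of responses, -0.48 (95% interval -0.94 to -0.01), was not called (limma adjusted p = 0.17).

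IQD24 (AT5G07240) followed the same course, from 7.40, 7.28 and 7.24 to 6.20, 6.25 and 6.01 in gun1-101 and from 7.55, 6.90 and 7.24 to 6.58, 6.64 and 6.30 in Col-0. Its fall was 2.22-fold in gun1-101 (-1.15, SE 0.17, limma adjusted p = 0.000958) and 1.65-fold in Col-0 (-0.72, SE 0.17, limma adjusted p = 0.0127). Every lincomycin array lay below every control array of its genotype.

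IQD31 (AT1G74690) had the smallest spread of the 17. It read 9.70, 9.67 and 9.64 in Col-0 controls, 9.22, 9.28 and 9.27 in Col-0 on lincomycin, 9.49, 9.65 and 9.53 in gun1-101 controls and 8.85, 8.83 and 8.86 in gun1-101 on lincomycin. The arrays thus formed 3 levels, with both control groups on top, Col-0 on lincomycin in the middle and gun1-101 on lincomycin at the bottom. It was lower by 1.64-fold in gun1-101 (-0.71, SE 0.10, limma adjusted p = 0.000918) and by 1.33-fold in Col-0 (-0.41, SE 0.10, limma adjusted p = 0.0178). The Col-0 call was lost without Col-0 control replicate 2 or Col-0 lincomycin replicate 1 or 2, with differences of -0.42 to -0.39 there, and with the compared groups alone. It was also the 1 further gene called lower in gun1-101 than in Col-0 on lincomycin (-0.41, SE 0.10, limma adjusted p = 0.0247), where 4.45% of all genes were called lower. That call was lost without Col-0 lincomycin replicate 1 or 2 or any gun1-101 lincomycin array, and 5 of the 12 had an unadjusted p under 0.05 in that comparison, against 25% of all genes.

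IQD29 (AT2G02790), IQD19 (AT4G14750) and IQD20 (AT3G51380) were called lower in gun1-101 alone. IQD29 read 8.31, 8.57 and 8.36 in gun1-101 controls and 7.61, 7.51 and 7.57 after lincomycin (-0.85, SE 0.18, limma adjusted p = 0.00745), with 8.49, 8.35 and 8.02 becoming 8.24, 8.26 and 7.64 in Col-0 (-0.24). IQD20 read 7.77, 7.28 and 7.76 against 7.11, 6.88 and 7.18 in gun1-101 (-0.55, SE 0.16, limma adjusted p = 0.0312), and its Col-0 difference was 0.08. The IQD20 call was lost when any gun1-101 array but control replicate 2 was left out, with differences of -0.61 to -0.46. For both, the gun1-101 groups did not overlap and the Col-0 groups did, but the difference of the responses was not called (limma adjusted p = 0.143 for IQD29 and 0.0982 for IQD20).

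IQD19 was the 1 gene of the 17 measured IQD genes whose difference of responses was called, where 2.96% of all genes were called lower. Its levels were 5.55, 5.67 and 6.04 in gun1-101 controls and 4.87, 5.18 and 4.62 in gun1-101 on lincomycin (-0.86, SE 0.22, limma adjusted p = 0.0175), a call that was lost without gun1-101 control replicate 3 or gun1-101 lincomycin replicate 1 or 3. In Col-0 they were 5.35, 5.66 and 4.96 without and 5.31, 5.66 and 5.86 with lincomycin, a difference of 0.29 (SE 0.22) that was not called. The difference of the responses was -1.15 (SE 0.31, limma adjusted p = 0.0463), and 4 of the 12 had an unadjusted p under 0.05 for it, against 28.3% of all genes. The call of this difference was lost with every probe set tested and with the array term. It was also lost when Col-0 control replicate 3, Col-0 lincomycin replicate 1 or 2, any gun1-101 control array, or gun1-101 lincomycin replicate 1 or 3 was left out.

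The other 6 further genes, iqd15, IQD16, IQD22, IQD23, IQD25 and IQD26, were not called in any comparison. Their differences ran from -0.30 (IQD16) to 0.08 (IQD26) in gun1-101 and from -0.30 (IQD26) to 0.12 (iqd15) in Col-0. Between the control groups limma called 0 of the 12, against 0.0181% of all genes, with 0 at an unadjusted p under 0.05, against 12.7%.

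**Figure D2:**
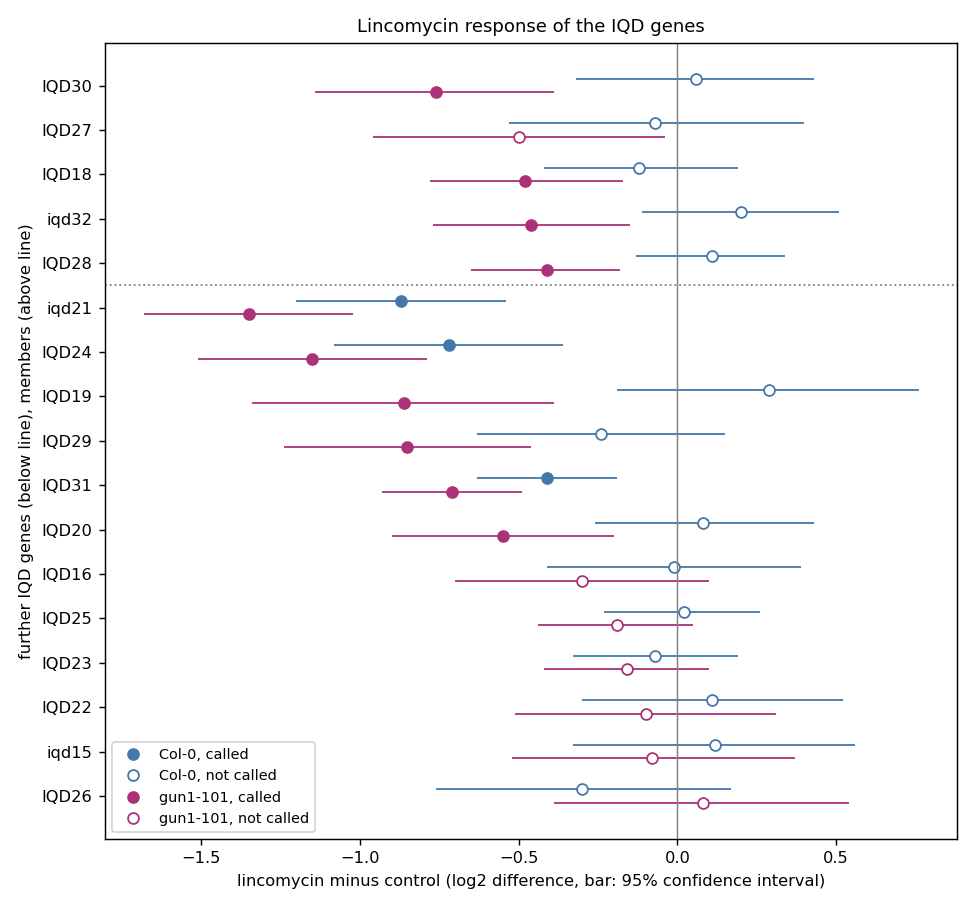
Lincomycin minus control as a log2 difference (horizontal axis) for the 5 members (above the dotted line) and the 12 further IQD genes (below it), in Col-0 (blue) and gun1-101 (purple); bars are 95% confidence intervals and filled points were called. The gun1-101 point lies to the left of the Col-0 point for 16 of the 17 genes, IQD26 being the exception, against 55.6% of all genes. The 5 members among them were chosen with these values known. The filled Col-0 points belong to iqd21, IQD24 and IQD31.

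**Figure D3:**
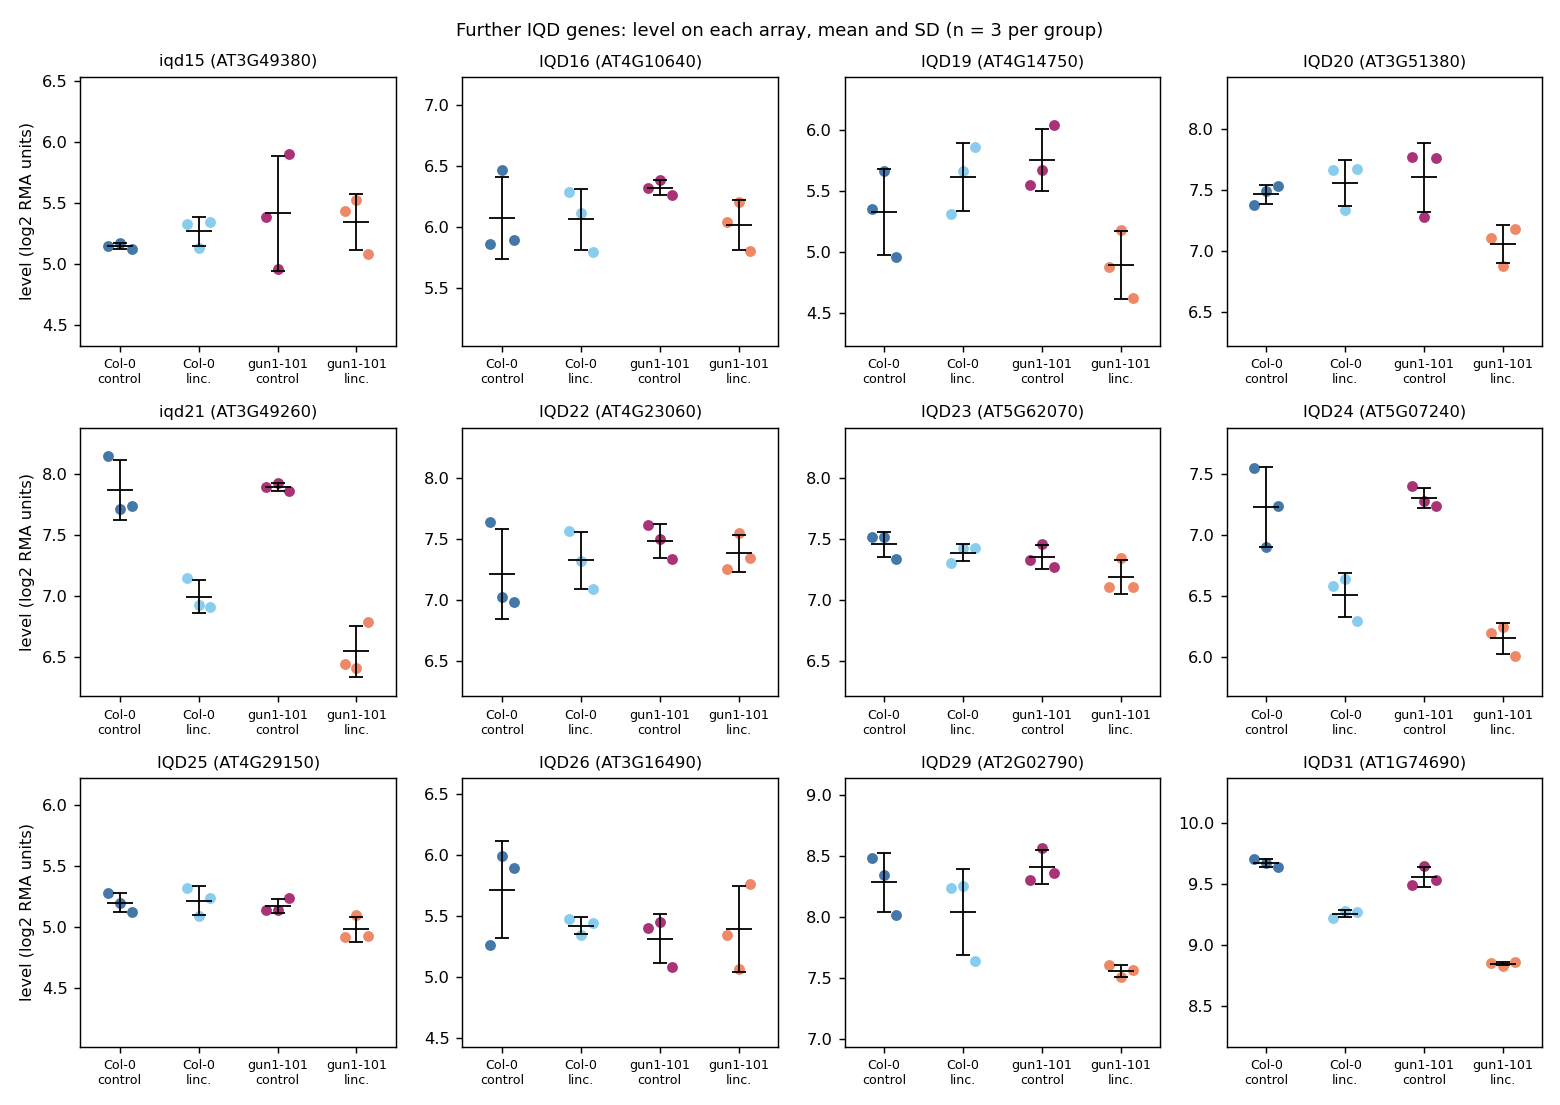
Level of the 12 further IQD genes in log2 RMA units (vertical axis) on each of the 12 arrays, by group; points are arrays, and the black bars give the mean and SD of 3 arrays. The lincomycin arrays of iqd21, IQD24 and IQD31 lie below the controls in both genotypes, and those of IQD16, IQD19, IQD20, IQD25 and IQD29 in gun1-101 alone.

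Lists of calcium sensor, IQ-motif, cytoskeleton, cellulose synthase and dividing-cell genes were drawn up by locus. A place on a list does not show that a gene works with IQD proteins. At most part of each list was measured by a probe set of its own. None of the 7 calmodulin genes, the 3 kinesin light chain-related genes or the 12 listed microtubule-associated genes was analysed here, nor were the 6 cellulose synthase genes or the 6 genes of dividing cells. Of 15 tubulin genes 6 were measured, and of 33 loci listed as calmodulin-like 22 were, of which 7 carry such a name in the RefSeq gene table. The 7 measured loci of another list, of other IQ-motif genes, carry no such name there and are given by locus tag.

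The tubulin genes, which code for the subunits of microtubules, were called lower by lincomycin in gun1-101 for 4 of 6, against 9.51% of all genes, with a list median of -0.61, and none was called higher. The beta-tubulin gene TUB1 read 9.21, 9.18 and 9.27 in gun1-101 controls and 7.79, 7.89 and 7.77 on lincomycin, a 2.64-fold fall (-1.40, SE 0.11, limma adjusted p = 4.19e-05). TUB1 in Col-0 read 9.03, 9.13 and 8.84 without and 8.78, 8.88 and 8.71 with lincomycin, a difference of -0.21 that was not called. The difference of the TUB1 responses was -1.19 (SE 0.16, limma adjusted p = 0.00187), and on lincomycin TUB1 was lower in gun1-101 than in Col-0 (-0.97, limma adjusted p = 0.000311).

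TUB7 and TUB5 fell in both genotypes. TUB7 fell by 1.22 on the log2 scale in gun1-101 (limma adjusted p = 0.000539) and by 0.63 in Col-0 (limma adjusted p = 0.0184). TUB5 fell by 0.70 in gun1-101 (limma adjusted p = 0.00704) and by 0.60 in Col-0 (limma adjusted p = 0.0178). The alpha-tubulin gene TUA6 was called lower in gun1-101 (-0.52, limma adjusted p = 0.0465) and not in Col-0 (-0.48, limma adjusted p = 0.073), and its difference of responses was -0.03. In Col-0 2 of 6 tubulin genes were called lower, against 7.19% of all genes, with a list median of -0.35. The Col-0 calls of TUB5 and TUB7 were lost without Col-0 lincomycin replicate 1 or 2, that of TUB5 also without Col-0 control replicate 2 and that of TUB7 without Col-0 control replicate 3. The TUA6 call held without Col-0 control replicate 1, Col-0 lincomycin replicate 1 or 3 or gun1-101 lincomycin replicate 2, and was lost without any of the other 8 arrays.

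Among the calmodulin-like loci, the list of calcium sensors, lincomycin raised 5 of 22 and lowered 1 in gun1-101, against 10.9% of all genes raised and 9.51% lowered, with a list median of 0.52. CML41 rose from 4.15, 3.25 and 3.58 to 5.52, 4.81 and 5.60 (1.65, SE 0.36, limma adjusted p = 0.00899). CML37 rose from 4.18, 4.04 and 4.43 to 5.37, 7.20 and 4.73 (1.55, SE 0.47, limma adjusted p = 0.038), and its second lincomycin array stood far above the other 2. Without that array the CML37 difference was 0.84, and its call was lost there, without any gun1-101 control array and without gun1-101 lincomycin replicate 1. AT1G21550 rose by 2.01 (SE 0.39, limma adjusted p = 0.00527), AT2G27480 by 0.99 (limma adjusted p = 0.00892) and AT3G47480 by 0.92 (limma adjusted p = 0.00622). The signal of AT3G47480 was weak, at 2.73, 2.29 and 2.73 in controls and 3.52, 3.28 and 3.71 on lincomycin. The filter on low values left this gene out.

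In Col-0, 2 of the 22 calmodulin-like loci were called, both lower, against 7.19% of all genes, with a list median of -0.09. AT2G41090 read 10.13, 10.65 and 10.51 without and 8.02, 8.11 and 8.99 with lincomycin, a 4.17-fold fall (-2.06, SE 0.23, limma adjusted p = 0.000142). Its fall in gun1-101 was smaller (-0.73, limma adjusted p = 0.0463), and the difference of the responses was 1.33 (SE 0.33, limma adjusted p = 0.0356). Its gun1-101 call was lost without any gun1-101 array, Col-0 control replicate 3 or Col-0 lincomycin replicate 2. AT1G73630 was the other (-0.85, limma adjusted p = 0.0461), and 8 of the 12 arrays ended its call when left out, all but Col-0 control replicate 1, Col-0 lincomycin replicate 3 and gun1-101 lincomycin replicates 1 and 2. On lincomycin 3 of 22 were higher in gun1-101 than in Col-0, against 5.12% of all genes, namely AT1G21550 (2.40, limma adjusted p = 0.00282), AT3G47480 (0.86, limma adjusted p = 0.0137) and AT2G41090 (0.86, limma adjusted p = 0.0387). The call of AT3G47480 was lost without Col-0 lincomycin replicate 1 or 2 or gun1-101 lincomycin replicate 3, and that of AT2G41090 held without Col-0 control replicate 1 or 2, Col-0 lincomycin replicate 3 or gun1-101 control replicate 1 and with no other array left out.

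Of the 7 loci listed as other IQ-motif genes, 3 were called higher in Col-0 on lincomycin, against 7.15% of all genes. They were AT1G67310 (0.73, limma adjusted p = 0.0153), AT5G57010 (0.73, limma adjusted p = 0.0236) and AT3G16940 (0.68, limma adjusted p = 0.0246), and the list median was 0.61. All 7 loci had an unadjusted p under 0.05, against 28.4% of all genes. One of them, AT3G52870, went the other way (-0.41) and was not called. All 3 calls were lost without Col-0 control replicate 3 or Col-0 lincomycin replicate 2, those of AT5G57010 and AT3G16940 also without Col-0 control replicate 2, and those of AT1G67310 and AT3G16940 without Col-0 lincomycin replicate 1. In gun1-101 1 of the 7 was called, where 9.51% of all genes were called lower, namely AT3G13600, which was lower (-1.21, SE 0.27, limma adjusted p = 0.00972). On lincomycin AT5G57010 was lower in gun1-101 than in Col-0 (-0.95, limma adjusted p = 0.00856). Between the control groups limma called 0 loci of these 3 lists, against 0.0181% of all genes. There 5 of 22, 3 of 7 and 0 of 6 had an unadjusted p under 0.05, against 12.7% of all genes.

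**Figure D4:**
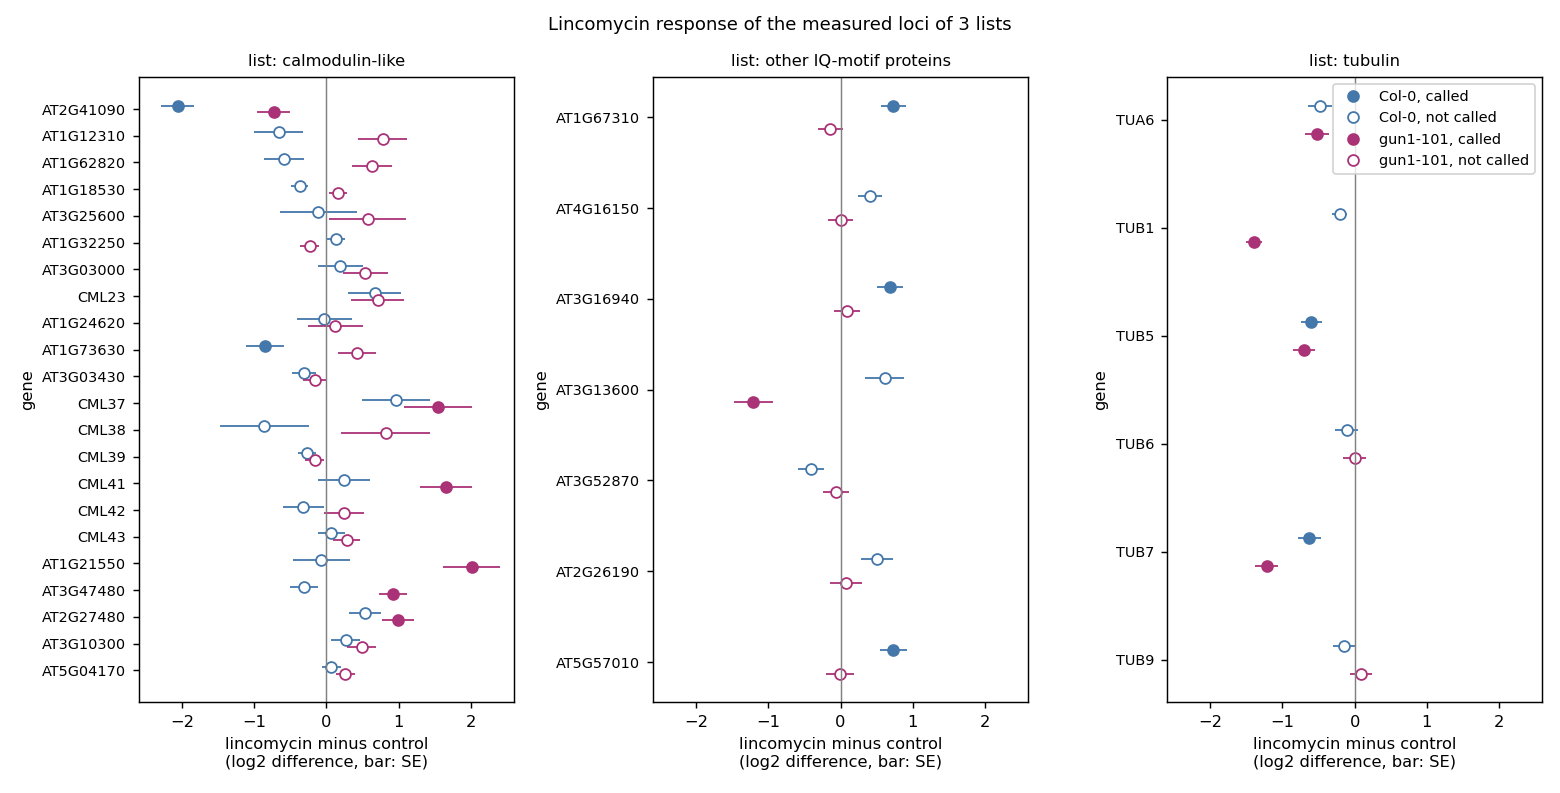
Lincomycin minus control as a log2 difference (horizontal axis, bars are the SE) for the measured loci of the calmodulin-like, other IQ-motif and tubulin lists, in Col-0 (blue) and gun1-101 (purple); filled points were called. In gun1-101 4 of 6 tubulin genes lie to the left of zero as filled points, and 5 of 22 calmodulin-like loci to the right.

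Markers of single cell types were thinly covered. In gun1-101, 1 of the 3 measured genes of the stomatal lineage was called, against 10.9% of all genes called higher. It was MUTE, which turns a meristemoid into a guard mother cell and was higher (0.78, limma adjusted p = 0.0317). Its groups overlapped, with 7.02, 6.71 and 6.55 on the control arrays and 7.83, 7.01 and 7.80 on the lincomycin arrays. In Col-0 SPCH (-0.70, limma adjusted p = 0.0268) and FAMA (-0.76, limma adjusted p = 0.0194) were lower, against 7.19% of all genes called lower. The calls of these stomatal genes were not rerun with arrays left out or under the other alternatives. The root genes PYK10 and EXP7 were not called in any comparison, with gun1-101 differences of -0.12 and 0.53. Of the 3 leaf genes, PRK (phosphoribulokinase) fell in gun1-101 (-1.10, limma adjusted p = 0.00594), while RCA (-0.09) and LHCB1.5 (-0.50) were not called there. On lincomycin, beside the lower IQD levels, gun1-101 had higher levels than Col-0 of RCA (0.73, limma adjusted p = 0.00272), PRK (1.90, limma adjusted p = 0.00033), LHCB1.5 (3.39, limma adjusted p = 1.03e-05) and SPCH (0.72, limma adjusted p = 0.0321). Over all genes 5.12% were called higher there. The part of these cell types in the IQD levels was not tested.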

How the data were processed

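The deposited values are log2 RMA signals of 38408 probe sets on 12 Affymetrix arrays, made by the authors with Expression Console 1.3 per the submitters' processing notes, and they were used as deposited. Such summaries compress differences at low levels and hold no sequencing depth, so 3 arrays per group limit the precision. Of the probe sets, 16722 list 1 gene, 759 several and 20927 none, and 16574 of those with 1 gene matched the RefSeq gene table of assembly TAIR10.1. The probe set with the highest mean stood for a gene, which left 16548 genes. The 4 group means were fitted together with limma 3.58.1 in R 4.3.3 (lmFit, eBayes, prior of 3.89 degrees of freedom), two-sided, with Benjamini-Hochberg adjustment over all genes and a threshold of 0.05. The fit was tested on simulated data. The members and lists were chosen with earlier results of these data known. Named besides the members were all measured IQD loci, up to 4 called genes per list and comparison with the lowest adjusted p, 3 neighbours per member and the tissue markers. CML37 was named after its values were seen. Alternatives comprised scaling, filters, array weights, a replicate block and left-out arrays. The labels call the replicates biological and do not describe their source further, so p-values measure the spread between these samples.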

Additional observations from a re-analysis of the deposited data

Results flagged for a closer look

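The difference of the lincomycin response between the genotypes was itself called by limma for 6 of the measured IQD (17), tubulin (6), calmodulin-like (22) and IQ-motif (7) genes. Over all genes 2.96% were called lower and 4.01% higher for this difference. The adjusted p was taken over all genes. All 3 leaf genes, RCA, PRK and LHCB1.5, were called for it as well, with positive differences from 0.79 to 3.86. The RCA call was lost when any of 6 of the 12 arrays was left out. A negative difference of responses means a more negative change with lincomycin in gun1-101 than in Col-0, not a lower level. Such a difference was called for IQD19 (-1.15, SE 0.31, limma adjusted p = 0.0463), for TUB1 (-1.19, SE 0.16, limma adjusted p = 0.00187) and for AT3G13600 of the IQ-motif list (-1.82, SE 0.38, limma adjusted p = 0.0195). AT3G13600 read 6.59, 6.43 and 7.10 in gun1-101 controls and 5.20, 6.09 and 5.21 on lincomycin, against 5.71, 5.44 and 5.75 and then 5.83, 6.60 and 6.31 in Col-0. The difference of responses was positive for 3 loci of the calmodulin-like list, AT1G21550 (2.08, SE 0.56, limma adjusted p = 0.0458), AT2G41090 (1.33, SE 0.33, limma adjusted p = 0.0356) and AT3G47480 (1.24, SE 0.27, limma adjusted p = 0.0215). The last of these had weak signals of 2.29 to 3.71 over the 12 arrays. AT1G21550 read 5.43, 7.39 and 5.69 on the gun1-101 lincomycin arrays and 3.58 to 4.55 on the other 9. No member had a called difference of this kind. Of these 6 calls, that of TUB1 held with each array left out in turn, while 4 of the 12 arrays ended the call of AT3G13600, 6 that of AT3G47480, 8 those of IQD19 and AT1G21550, and 10 that of AT2G41090, with the direction kept in each.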

How the results depend on the processing

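The differences of the 17 IQD genes, 85 results, gave 1853 values under 22 alternatives. None of the called values turned its sign, 86 lost and 38 gained a call, 13 moved otherwise and 1716 did neither, while 52 values without a call changed sign. The genes of the calmodulin-like, IQ-motif, tubulin and leaf lists gave 4132 more values, of which none called turned its sign, 118 lost and 91 gained a call and 129 without a call changed sign. Where counts moved by over 1.5 times, they were as follows, and the cause was not tested. Among the 5 members, the Col-0 lincomycin count of 0 became 1 (iqd32, higher) with array weights and with Col-0 control 1 and Col-0 lincomycin 3 left out together. The gun1-101 lincomycin count of 4 became 2 with the array covariate. The count of 4 between the genotypes on lincomycin became 2 when arrays were shifted to 1 median, 2 with every probe set tested, 2 with the array covariate and 1 with the compared groups alone. The count of 0 for the difference of responses became 1 with quantile normalisation, 1 with the filter on low values, 1 with the trend and robust prior, 3 with array weights and 4 with those 2 arrays left out. Among the 12 further genes, the Col-0 count of 3 became 1 with the compared groups alone, and the count of 0 between controls became 1 (IQD22) without the 2 arrays. The count of 1 between genotypes on lincomycin became 0 with the compared groups alone, 5 with array weights, 4 without the 2 arrays and 2 with the replicate block. The count of 1 for the difference of responses became 0 with every probe set, 0 with the array covariate, 4 with array weights and 4 without the 2 arrays.

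Leaving out 1 array at a time gave these ranges for members and further genes: 0 to 0 and 2 to 3 for lincomycin in Col-0, 1 to 4 and 4 to 6 in gun1-101, 0 to 0 and 0 to 0 between controls, 0 to 4 and 0 to 2 between genotypes on lincomycin, and 0 to 2 and 0 to 2 for the difference of responses. Over the 22 alternatives in gun1-101, IQD30 was called in 22, IQD28 in 17, IQD18 in 15, iqd32 in 14 and IQD27 in 2. Same-numbered arrays had correlations of their deviations from -0.30 to 0.44, so the numbers were not taken as pairs. With the replicate block, 3 members were called in gun1-101 (IQD18 at a limma adjusted p = 0.0506), and 3 between the genotypes on lincomycin (IQD18 at 0.0628), and the block changed the call of no other member. AT3G47480 was not tested under the filter on low values. Over all genes, 1810 were called higher and 1574 lower in gun1-101, and 1513 and 1908 when arrays were shifted to 1 median. With 1 array left out, the genes called ran from 1356 (Col-0 lincomycin 2) to 3377 (Col-0 control 1) around 2374 for lincomycin in Col-0, from 1966 (gun1-101 lincomycin 1) to 4289 (Col-0 control 1) around 3384 in gun1-101, and from 748 (Col-0 lincomycin 2) to 2463 (Col-0 lincomycin 3) around 1585 between genotypes on lincomycin. Signal over background is unknown for these summaries, which limits the weakest loci.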

Other observations

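The 15 nearest neighbours of the members were picked for their likeness to them. Their log2 differences with lincomycin ran from -0.93 (AT3G07940) to -0.22 (AT1G47740) in gun1-101 and from -0.09 (AT5G11990) to 0.41 (AT3G07940) in Col-0. None of the 15 belongs to a list named above.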
